A study of Mus musculus with 5 samples.

Results

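The mRNAs of the Lin28 genes, of genes that act with them on let-7 microRNAs, and of oncofetal let-7 targets (genes active in the embryo and again in tumours) were followed across 5 mouse RNA-seq libraries. The set held 9 genes, chosen by symbol for their place in the pathway, with earlier results of these data known: Lin28a, Lin28b, Trim71, Dis3l2, Hmga1, Hmga2, Igf2bp1, Igf2bp2, and Igf2bp3. All 9 were found among the 24421 genes of both deposited tables. The study set fibroblasts beside pluripotent cells and then depleted the glycine-cleaving enzyme Gldc in mouse embryonic stem cells (mESCs). The MEF library came from mouse embryonic fibroblasts, which were grown in medium with serum and given no shRNA. The IPS library came from induced pluripotent stem cells (iPSCs), somatic cells reprogrammed to pluripotency. The V6.5 library came from unmodified V6.5 cells, an mESC line. The NTC library came from V6.5 cells carrying a non-targeting control shRNA and the shGldc library from V6.5 cells carrying 1 Gldc shRNA, so both of these share the shRNA vector that the unmodified cells lack. The mESCs and iPSCs were grown without feeder cells on gelatin with leukaemia inhibitory factor.

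Each condition was 1 library, so the values below have no replicate error and no p-value is given for any of them. Levels are FPKM, fragment counts scaled to transcript length and to sequencing depth, which can be compared between genes within a library. The FPKM values summed to between 466650 and 576470 a library, and between 11152 and 11833 genes reached an FPKM of 1. The cell labels were checked against 10 markers a cell type. The summed FPKM of the pluripotency markers was 41.5 in MEFs and between 4188 and 7252 in the other 4 libraries, and that of the fibroblast markers was 7428 in MEFs and between 7.68 and 54.6 elsewhere. Macrophage markers summed to 339 in MEFs, with all 10 at an FPKM of 1 or more, against 11.5 to 22.2 in the other libraries. Most of the sum in the other 4 was Cd68 alone, at 9.04 to 19.9 there and 18.7 in MEFs. The targeted gene Gldc was at 74.7 in NTC and 2.07 in shGldc, a log2 ratio of -5.11, and stood at 0.123 in MEFs, 70.8 in iPSCs, and 59.7 in unmodified V6.5 cells.

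Lin28a and Lin28b bind the precursors of let-7 and keep them from being cut into the mature microRNA. Lin28 bound to a precursor recruits an enzyme that adds uridines to its end, and the exonuclease Dis3l2 then degrades the tailed RNA. Mature let-7 in turn pairs with sites in the 3′ UTRs of Lin28a, Lin28b, Trim71, Hmga2, and the Igf2bp genes and lowers their output, so that Lin28 and let-7 oppose each other as stem cells leave pluripotency.

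The mature let-7 sequences are shown because the seed, bases 2 to 8, is what pairs with a target. RefSeq (GRCm38.p6) lists 11 mature mouse let-7 names, counting miR-98, and 10 of them share 1 seed. The capitals mark the seed, and the last line is the 1 member that differs in it.
mmu-let-7a-5p: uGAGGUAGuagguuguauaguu
mmu-let-7d-5p: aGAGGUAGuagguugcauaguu
mmu-let-7g-5p: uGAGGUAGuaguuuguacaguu
mmu-miR-98-5p: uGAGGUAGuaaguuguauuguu
mmu-let-7j: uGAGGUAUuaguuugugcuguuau
The DNA letters that pair with the shared seed are CTACCTC, searched on the transcript strand only. The 3′ UTR of the longest complete coding transcript of each gene was searched (GENCODE M21, GRCm38). Of the 9 genes, 8 held at least 1 match and 5 held at least 2, with 21 matches in all. Among 12664 genes that reached an FPKM of 1 in some library, 10.1% held at least 1 match and 1.20% at least 2. Most of the 9, Dis3l2 aside, were chosen as known let-7 targets, so their share is a description and not independent evidence.

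Lin28b, Trim71, Hmga2, and Igf2bp1 each held 4 matches, a number that 10 of the 12664 genes, these 4 included, reached or passed. Lin28a held 2, Hmga1, Igf2bp2, and Igf2bp3 held 1, and Dis3l2, which acts on let-7 precursors, held none. Longer UTRs hold more matches by length alone, and 8 of the 9 genes had a 3′ UTR above the median of 1064 nt. Beside genes whose UTR length lay within 25% of its own, 4 matches were reached by 0.159% for Hmga2, 0.359% for Lin28b, 0.43% for Igf2bp1, and 0.755% for Trim71. These shares count the gene itself and any other of the 9 genes of like length. They stand for 3, 4, 2, and 5 genes in that order, and those for Igf2bp1 were itself and Trim71. A single match was as common as 8.89% at the length of Hmga1, 12.0% at that of Igf2bp2, and 13.6% at that of Igf2bp3. Hmga2 was the densest, with 1.33 matches per kb. The first match of each gene is shown with 15 bases before it and 1 after it, with the match in capitals. The base after it matters because an A there is known to strengthen a site.
Lin28a, chr4:134005189-134005211, minus strand: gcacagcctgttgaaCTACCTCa
Lin28b, chr10:45381022-45381044, minus strand: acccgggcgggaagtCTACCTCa
Trim71, chr9:114512472-114512494, minus strand: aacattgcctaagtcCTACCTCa
Hmga1, chr17:27563277-27563299, plus strand: tcctctgttcacaaaCTACCTCt
Hmga2, chr10:120364224-120364246, minus strand: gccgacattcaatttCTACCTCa
Igf2bp1, chr11:95961778-95961800, minus strand: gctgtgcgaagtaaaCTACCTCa
Igf2bp2, chr16:22059473-22059495, minus strand: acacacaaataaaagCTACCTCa
Igf2bp3, chr6:49086787-49086809, minus strand: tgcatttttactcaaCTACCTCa
Of the 21 matches, 13 were followed by an A. All 4 matches of Trim71 and 3 of the 4 of Igf2bp1 were, but 1 of the 4 of Hmga2 and 1 of the 4 of Lin28b. The other Trim71 matches are shown because the last 2 lie close together.
Trim71, chr9:114512376-114512398, minus strand: agtgataatttctatCTACCTCa
Trim71, chr9:114509047-114509069, minus strand: tttagtatggattttCTACCTCa
Trim71, chr9:114509021-114509043, minus strand: ttggcaaaaagttgtCTACCTCa

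**Figure D1:**
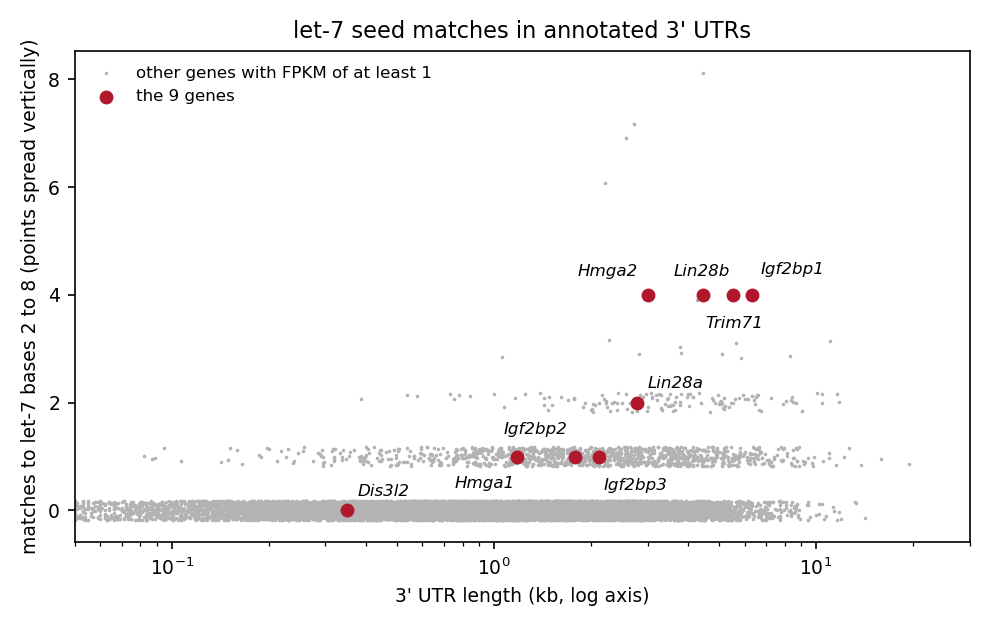
Number of matches to let-7 bases 2 to 8 in the annotated 3′ UTR (y axis, grey points spread vertically for sight) against 3′ UTR length in kb (x axis, log scale) for genes reaching 1 FPKM in some library, with the 9 genes in red. Lin28b, Trim71, Hmga2, and Igf2bp1 sit at 4 matches, above nearly all genes of like length, and Dis3l2 sits at 0 (the shortest UTRs lie outside the axis).

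The Lin28 genes themselves separated fibroblasts from pluripotent cells. Lin28a (chr4:134003330-134018841, minus strand) was listed at 0 in MEFs, 27.9 FPKM in iPSCs, 47.6 in V6.5, 74.3 in NTC, and 55.2 in shGldc. It was high in every pluripotent library. Against a floor of 3 fragments in MEFs, which is worth 0.0348 FPKM at the estimated depth, Lin28a was at least 1370-fold higher in V6.5 and at least 801-fold higher in iPSCs. On the log2(FPKM + 0.1) scale, Lin28a ranked 25 from the top of 12840 genes in V6.5 over MEFs. This scale, which understates low genes, is used for all log2 ratios, ranks, and 2-fold counts below. Folds of single genes are plain FPKM quotients.

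Lin28b (chr10:45376620-45486395, minus strand) encodes the paralogue, which is known from other cell types and many tumours. It was at 0.0226 FPKM in MEFs, 1.56 in iPSCs, 1.70 in V6.5, 1.86 in NTC, and 1.29 in shGldc. The pluripotent libraries lay close together and all above MEFs. The MEF value corresponds to about 3.01 fragments. The FPKM quotient of 75.4 for V6.5 over MEFs thus has a counting interval (95%, counting error only) of 25.8 to 366. That of 69.1 for iPSCs has 23.7 to 336. Lin28a held between 94.7% (iPSCs) and 97.7% (shGldc) of the summed Lin28 FPKM in the pluripotent libraries, so Lin28a was the main Lin28 transcript in all 4.

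Trim71 (chr9:114507133-114564369, minus strand) encodes an RNA-binding ubiquitin ligase of early embryos that is itself silenced by let-7. It was at 0.164 FPKM in MEFs, 12.3 in iPSCs, 13.8 in V6.5, 19.4 in NTC, and 15.2 in shGldc. It was 84.1-fold higher in V6.5 and 75.0-fold higher in iPSCs than in MEFs, where about 37.7 fragments were behind its value. Dis3l2 (chr1:86703808-87050095, plus strand) was at 3.37 FPKM in MEFs, 8.63 in iPSCs, 13.6 in V6.5, 9.56 in NTC, and 11.1 in shGldc. This exonuclease was present in every library, and MEFs were lowest. V6.5 stood 4.03-fold and iPSCs 2.56-fold above MEFs. These libraries are bulk RNA, in which fewer cells of a type and less RNA per cell cannot be told apart.

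**Figure D2:**
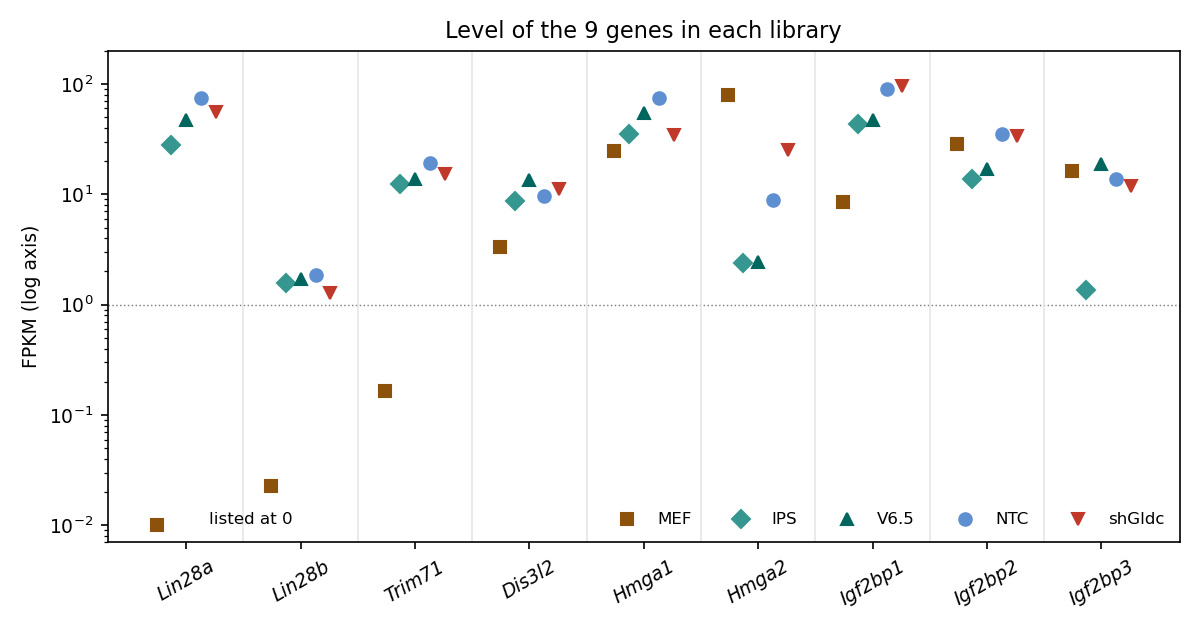
FPKM (log axis) of the 9 genes in the 5 libraries, 1 point a library; the dotted line marks an FPKM of 1, and Lin28a in MEFs, listed at 0, is drawn at the bottom. Lin28a, Lin28b, and Trim71 are under 1 in MEFs alone, Hmga2 is highest in MEFs at 78.8, and Igf2bp3 is lowest in iPSCs at 1.36.

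The Hmga genes encode AT-hook proteins that bend DNA and open chromatin. Hmga2 (chr10:120361275-120476469, minus strand) was at 78.8 FPKM in MEFs, 2.39 in iPSCs, 2.43 in V6.5, 8.85 in NTC, and 25.03 in shGldc. MEFs were above every pluripotent library, by 32.9-fold over iPSCs, 32.4-fold over V6.5, and, across the separately made tables, 8.90-fold over NTC and 3.15-fold over shGldc. The iPSC and V6.5 levels were nearly equal (log2 ratio -0.02). Hmga2 was thus highest in the library in which Lin28a was listed at 0. Mature let-7 was not measured here.

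Hmga1 (chr17:27556497-27563674, plus strand) was at 24.7 FPKM in MEFs, 35.3 in iPSCs, 54.7 in V6.5, 75.3 in NTC, and 34.2 in shGldc. NTC was highest and MEFs lowest. Hmga1 was 2.22-fold higher in V6.5 than in MEFs, and its log2 ratio of 1.15 fell under 2-fold when the FPKM sums of the libraries were made equal (0.91) or centred on the median gene (0.90). Of the 50-nt stretches of its transcript, 55.0% also occur in other annotated transcripts, and how the authors' counting divided such reads is not given in the sources used here, so the level of Hmga1 and its ratios are uncertain.

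Hmga2 held 76.2% of the summed Hmga1 and Hmga2 FPKM in MEFs, 6.34% in iPSCs, 4.25% in V6.5, 10.5% in NTC, and 42.2% in shGldc. MEFs had the highest share and shGldc the next. These shares rest on the uncertain level of Hmga1.

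The Igf2bp genes encode RNA-binding proteins that stabilize and localize mRNAs, among them that of Igf2. They did not move as a family. Igf2bp1 (chr11:95957163-96005940, minus strand) was at 8.54 FPKM in MEFs, 43.2 in iPSCs, 47.2 in V6.5, 89.6 in NTC, and 95.3 in shGldc. MEFs were lowest, by 5.53-fold against V6.5 and 5.06-fold against iPSCs. Igf2bp2 (chr16:22059009-22163299, minus strand), the paralogue known from adult tissues and metabolic traits, was at 28.8 in MEFs, 13.7 in iPSCs, 16.9 in V6.5, 35.0 in NTC, and 33.8 in shGldc. Its levels in iPSCs and V6.5 were the lowest, with iPSCs 2.11-fold and V6.5 1.70-fold under MEFs.

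Igf2bp3 (chr6:49085223-49214957, minus strand), an oncofetal marker of several tumours, was at 16.3 FPKM in MEFs, 1.36 in iPSCs, 18.6 in V6.5, 13.8 in NTC, and 11.8 in shGldc. The iPSC library alone was low. Its log2 ratio over MEFs was 0.19 in V6.5, which turned to -0.05 on rescaling and -0.06 on centring, and -3.50 in iPSCs. Against V6.5, iPSCs were 13.7-fold lower, rank 34 from the bottom of 12323 genes. About 131 fragments were behind the iPSC value. Malsu1, which overlaps the Igf2bp3 transcript by 1529 nt on the opposite strand, was at 34.2 in the same library and at 23.9 to 39.8 in all 5, so reads from Malsu1 gave Igf2bp3 no more than 1.36 FPKM in iPSCs.

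Within the family, the leading gene differed between fibroblasts and pluripotent cells. Igf2bp2 held 53.7% of the summed Igf2bp FPKM in MEFs, followed by Igf2bp3 with 30.4% and Igf2bp1 with 15.9%. In the pluripotent libraries Igf2bp1 led with 57.0% in V6.5, 64.7% in NTC, 67.6% in shGldc, and 74.2% in iPSCs. The share of Igf2bp3 was 22.5% in V6.5 and 2.33% in iPSCs.

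**Figure D3:**
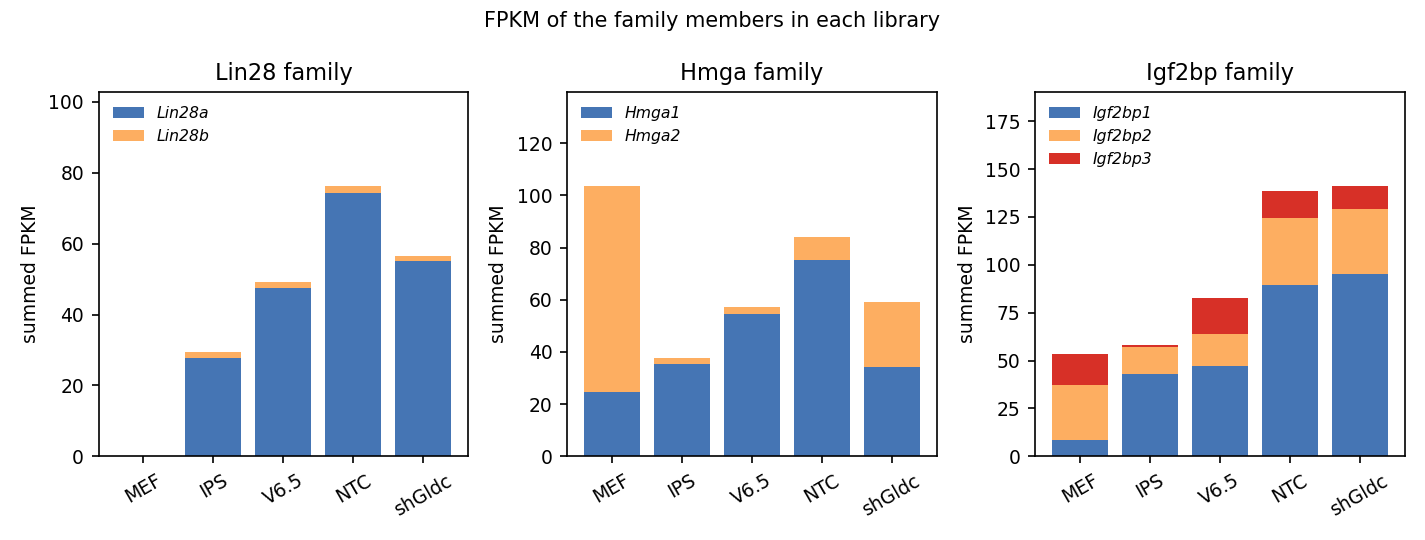
Summed FPKM of the Lin28, Hmga, and Igf2bp paralogues in each library, stacked by gene (linear axes starting at 0). Lin28a makes up nearly all Lin28 signal in the 4 pluripotent libraries, Hmga2 is 76.2% of the Hmga bar in MEFs and 42.2% in shGldc, and Igf2bp1 leads the Igf2bp bar in every library but MEFs.

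Counted together against MEFs, 6 of the 9 genes were at least 2-fold higher in V6.5 (Lin28a, Lin28b, Trim71, Dis3l2, Hmga1, and Igf2bp1), beside 30.3% of 12840 genes, and 1 was at least 2-fold lower (Hmga2), beside 23.3%. Their median log2 ratio was 1.98, against 0.25 for all genes. In iPSCs over MEFs, 5 were at least 2-fold higher, beside 31.5% of 13032 genes, and 3 at least 2-fold lower (Hmga2, Igf2bp2, and Igf2bp3), beside 21.3%, with a median of 1.33 against 0.31. Rescaling the libraries changed the shares over all genes to 25.6% higher and 26.8% lower in V6.5 and to 25.1% and 25.9% in iPSCs. The log2 ratios of Lin28a, Lin28b, Trim71, Dis3l2, and Igf2bp1 stayed at 1 or more in both comparisons after rescaling and after centring. These comparisons share the MEF library, so they are not independent of each other.

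In iPSCs over V6.5, all 9 genes had lower values, with a median log2 ratio of -0.31 against 0.04 for all 12323 genes. Only Igf2bp3 was at least 2-fold lower, beside 7.44% of all genes, and none was at least 2-fold higher, beside 10.1%. As a yardstick in the absence of replicates, the log2 ratios of all genes in NTC over V6.5 had a robust SD of 0.59, a pair that differs by the vector and by separately made tables. Of the 9 differences between iPSCs and V6.5, 5 lay within it, beside 62.8% of all genes: Lin28b, Trim71, Hmga2, Igf2bp1, and Igf2bp2. Lin28a (-0.77), Dis3l2 (-0.65), and Hmga1 (-0.63) lay just outside. Markers of other cell types also differed between these libraries. The 10 fibroblast markers summed to 15.8 FPKM in iPSCs and 54.6 in V6.5, and of the 7 that could be compared 4 were at least 2-fold lower (Col1a1, Col1a2, Col3a1, and Twist2) and none higher. In NTC, of the separately made table, the fibroblast markers summed to 15.7 FPKM and Igf2bp3 was at 13.8. The 10 markers of endoderm and early differentiation summed to 22.7 in iPSCs and 15.6 in V6.5. Of the 6 compared, 3 were at least 2-fold higher (Gata6, Sox17, and Gata4), with Gata6 highest at a log2 ratio of 2.61, and 2 were lower (Pax6 and Sox1), with Sox1 lowest at -2.14. The part of fibroblasts and of differentiating cells in the Igf2bp3 difference was not tested.

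**Figure D4:**
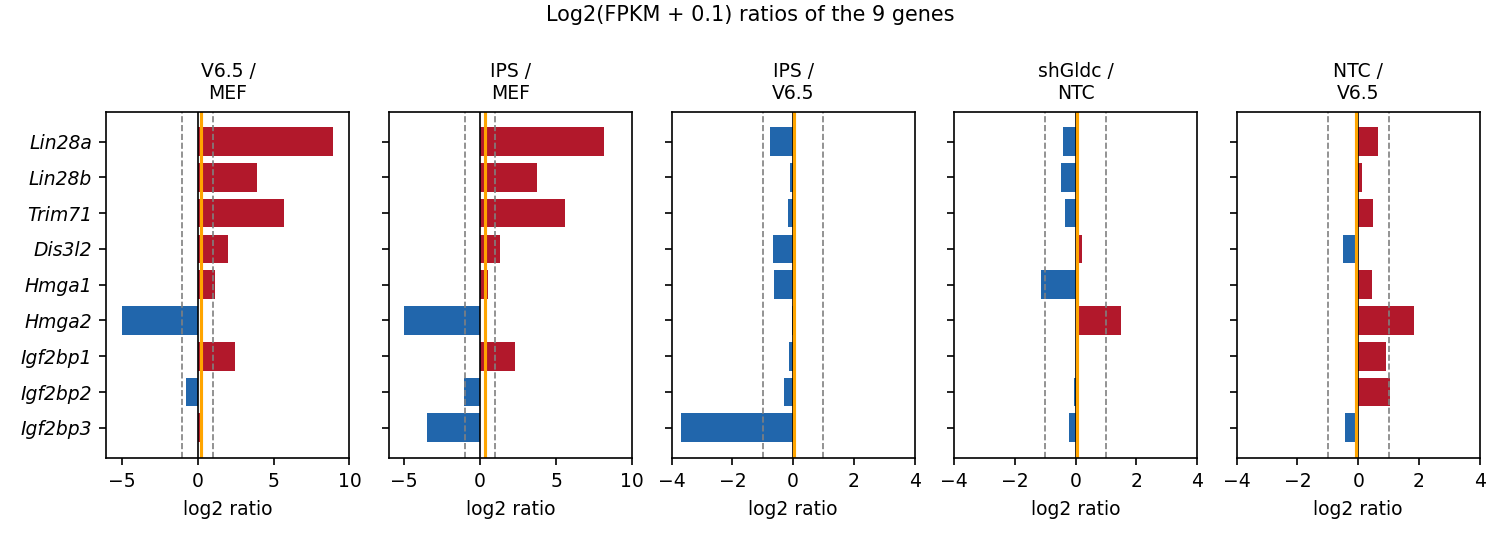
Log2(FPKM + 0.1) ratios of the 9 genes in 5 comparisons (red, higher in the first named library; blue, lower); dashed lines mark 2-fold and the orange line the median of all genes, and the first 2 panels have a wider axis. Hmga2 is low against MEFs (-4.96 and -4.98) and high in shGldc over NTC (1.49), and Igf2bp3 is the only long bar in iPSCs over V6.5 (-3.69).

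The Gldc shRNA library differed from its control by at least 2-fold for Hmga2 and Hmga1. The comparison asks which transcripts differ when the glycine-cleaving enzyme is reduced. In shGldc over NTC, 7 of the 9 genes lay within the yardstick of 0.59, near the share of all genes, 68.1%. Hmga2 was 2.83-fold higher (log2 ratio 1.49, rank 593 from the top of 11969 genes), the only one at least 2-fold higher, beside 8.97% of all genes. Hmga1 was 2.2-fold lower (log2 ratio -1.13), the only one at least 2-fold lower, beside 7.68%. Given the shared sequence of Hmga1, its place past the 2-fold line is uncertain. The median over the 9 genes was -0.23 against 0.04 for all genes.

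Lin28a, Lin28b, and Trim71 had lower values in shGldc than in NTC, with log2 ratios of -0.43, -0.50, and -0.35. Dis3l2 was at 0.22, Igf2bp1 at 0.09, Igf2bp2 at -0.05, and Igf2bp3 at -0.23. None of these 7 passed 2-fold.

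The control shRNA library was also set beside unmodified V6.5 cells. In NTC over V6.5, Hmga2 was 3.64-fold higher (log2 ratio 1.82, rank 177 of 12048) and Igf2bp2 2.06-fold higher, beside 4.99% of all genes at least 2-fold higher. None was at least 2-fold lower, beside 10.3%. Lin28b and Hmga1, 2 of the 9, differed more between shGldc and NTC than between NTC and V6.5, as did 48.5% of 12453 genes. For 6 of the 9 genes, NTC lay above or below both V6.5 and shGldc, beside 55.2% of all genes. Hmga2, Igf2bp1, and Igf2bp3 had NTC between the other libraries, and Hmga2 ran from 2.43 in V6.5 to 8.85 in NTC and 25.03 in shGldc, 10.3-fold in all. In shGldc over V6.5, Hmga2 and Igf2bp1 were at least 2-fold higher, beside 9.89%, and none at least 2-fold lower, beside 13.9%. The last 2 comparisons span tables that were made separately, so the vector and the table, and in shGldc over V6.5 also the Gldc depletion, cannot be told apart in them.

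Hmga2 was highest in MEFs, and cell type markers were therefore read beside it. Fibroblast markers summed to 54.6 FPKM in V6.5, 15.7 in NTC, and 7.68 in shGldc, with Col3a1, Prrx1, and Lum at 0 in NTC and shGldc. The members differed in direction from NTC to shGldc. Thy1 went from 6.95 to 1.11 FPKM, Col5a1 from 6.14 to 2.72, and Col1a1 from 1.24 to 0.125, whereas Pdgfra went from 0.143 to 1.36 (log2 ratio 2.59), and Col1a2 (0.225 to 0.621), Twist2 (0.105 to 0.477), and Fbn1 (0.905 to 1.27) also had higher values. The part of fibroblasts in the Hmga2 difference was not tested. Macrophage markers summed to 14.2 in NTC and 13.6 in shGldc, of which Cd68 gave 13.0 and 12.7. Of the 10, 7 were at 0 in NTC and 8 in shGldc. Endoderm and early differentiation markers summed to 10.0 in NTC and 26.5 in shGldc, and 3 of the 5 that could be compared were at least 2-fold higher in shGldc, beside 8.97% of all genes: Gata6 (0.462 to 8.22 FPKM), Gata4 (2.38 to 7.84), and Dab2 (0.928 to 2.26). The other 2 were T at a log2 ratio of 0.23 and Sox1 at -0.30. Under the filter, Sox17 (0.160 to 0.656 FPKM), Sox7 (0.142 to 0.944), and Foxa2 (0.0291 to 0.316) had higher values in shGldc. Pax6 had a lower value (0.166 to 0.0725), and Fgf5 was at 0 in both. The part of these cells in the Hmga2 difference was not tested either. All 10 pluripotency markers were at an FPKM of 1 or more in shGldc, none was 2-fold away from NTC, and their median log2 ratio was -0.49.

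**Figure D5:**
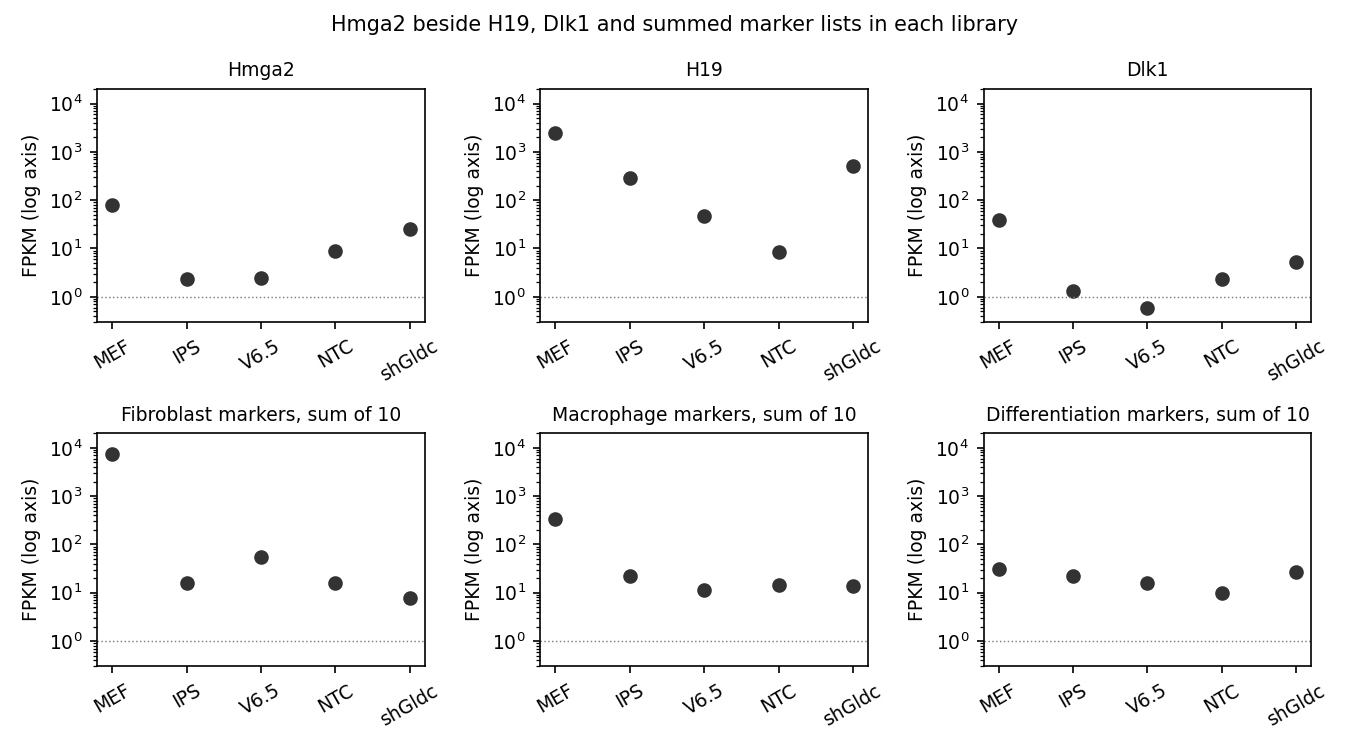
FPKM (log axis, dotted line at 1) of Hmga2, H19, and Dlk1 and summed FPKM of 10 fibroblast, 10 macrophage, and 10 endoderm and early differentiation markers, 1 point a library. Hmga2 is higher in shGldc (25.03) than in NTC (8.85), where the fibroblast sum is lower (7.68 against 15.7) and the differentiation sum higher (26.5 against 10.0).

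Other parts of the pathway were read from lists. Of 25 genes for let-7 and microRNA processing, 22 were listed and 20 passed the FPKM filter. In V6.5 over MEFs, 3 of the 20 were at least 2-fold higher and 1 lower, beside 30.3% and 23.3% of all genes, with Msi1, an RNA-binding protein of stem cells, highest (4.04) and Papd4, a terminal nucleotidyltransferase, lowest (-1.17). In iPSCs over MEFs, 3 were higher and 1 lower, beside 31.5% and 21.3%, with Msi1 again highest (3.02) and Ago1, an Argonaute, lowest (-1.34). In shGldc over NTC none of the 20 passed 2-fold, beside 8.97% of all genes higher and 7.68% lower, their median was -0.13, and they ran from Tnrc6c, a partner of Argonaute, at -0.93 to Tarbp2, a partner of Dicer, at 0.48. The let-7 precursor genes, 13 of 15 listed, gave almost no signal in these mRNA tables. None reached an FPKM of 1, their sum was at most 1.27, and all 13 were at 0 in shGldc, so nothing can be read from them about mature let-7.

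The 25 other known let-7 targets included genes higher and genes lower than in MEFs. Of 24 kept, 8 were at least 2-fold higher and 7 lower in V6.5, and as many were in iPSCs, shares near those of all genes (30.3% and 23.3% in V6.5, 31.5% and 21.3% in iPSCs). Igdcc3, a surface protein of the DCC family, was highest (5.71 in V6.5, 5.53 in iPSCs) and Ccnd2, cyclin D2, lowest (-5.85 and -6.21). The annotated 3′ UTR of Ccnd2, of 5173 nt, held 0 of the let-7 matches searched here. In shGldc over NTC, 1 of 22 was at least 2-fold higher, beside 8.97% of all genes, the insulin receptor substrate Irs2 (1.11), and 2 were lower, beside 7.68%, the transcription factors Myc (-1.19) and Arid3a (-1.48). Myc ran from 2.11 FPKM in V6.5 to 19.1 in NTC and 8.30 in shGldc, so its shGldc level stood above that of unmodified cells.

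Over all expressed genes, ratios were also read by the number of let-7 matches. The median log2 ratio of V6.5 over MEFs was 0.24 for 10792 genes with no match, 0.14 for 1077 genes with 1, and 0.46 for 148 genes with at least 2, or 0.35 for the last without the 9 genes. In iPSCs over MEFs the medians were 0.30, 0.27, and 0.53, or 0.51 without the 9 genes. Of genes with at least 2 matches, the 9 included, 36.5% were at least 2-fold higher and 19.6% lower in V6.5 than in MEFs, against 30.1% and 23.6% of genes with none, and in iPSCs the shares were 38.1% and 17.7% against 31.0% and 21.4%. These differences were not tested. In shGldc over NTC they were 0.03, 0.06, and 0.04. Genes with more matches also had longer UTRs, with medians of 984, 2107, and 3576 nt in V6.5 over MEFs, and the part of length was not tested.

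Among 13 other oncofetal genes, 10 could be compared, and fibroblasts were mostly higher. In V6.5 over MEFs, 1 of the 10 was at least 2-fold higher, beside 30.3% of all genes, the transcription factor Sall4 (8.11), and 7 were lower, beside 23.3%, led by the growth factor Igf2 (-7.58). In iPSCs over MEFs, Sall4 (8.41) was again the only one higher, beside 31.5%, and 8 were lower, beside 21.3%, with Igf2 at -6.45. In iPSCs over V6.5, 4 were at least 2-fold higher, beside 10.1%, with the imprinted RNA H19 highest (2.61), and 1 was lower, beside 7.44%, Gpc3 (-1.50). In shGldc over NTC, 3 of the 10 were at least 2-fold higher and none lower, beside 8.97% and 7.68% of all genes. They were H19 (8.42 to 519 FPKM, log2 ratio 5.93), Dlk1 (2.30 to 5.27, 1.16), and Peg3 (5.63 to 14.0, 1.3). H19 was at 47.7 FPKM in unmodified V6.5 cells, above NTC, and its log2 ratio of shGldc over V6.5 was 3.44. The lowest was Cd24a at -0.18. Igf2bp3 and H19 thus differed between the pluripotent lines in opposite directions, with iPSCs low for the first and high for the second.

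Genes whose levels ran most like each of the 9 were sought among 13656 genes by the root mean square difference of log2 profiles over the 5 libraries, each centred on its mean. With 5 points, a low value is common for genes of simple pattern. Lin28a was nearest to the pluripotency-associated Dppa4 (0.31) and Zscan10 (0.33), Lin28b to Cpne7 (0.10) and Srcin1 (0.11), and Trim71 to Cecr2 (0.09) and Cabp7 (0.16). Dis3l2 was nearest to Pisd-ps3 (0.03) and Cyp46a1 (0.05), and 2632 genes lay within 0.5 of it. Hmga1 was nearest to Adgrl1 (0.13) and Tecpr2 (0.15), Igf2bp1 to Cdc6 (0.14) and Mns1 (0.15), and Igf2bp2 to Pfn1 (0.08) and Evi5l (0.10). Few genes had patterns like those of Lin28a (9 within 0.5), Igf2bp3, and Hmga2. A single gene, Ly96, lay within 0.5 of Hmga2 (0.46), followed by Dlk1 (0.54). Ly96 was at 2.93 FPKM in MEFs, 0 in iPSCs and V6.5, 0.335 in NTC, and 0.381 in shGldc. It was thus low outside MEFs and nearly level from NTC to shGldc, where Hmga2 was not. Igf2bp3 was nearest to the imprinted RNA Meg3 (0.33) and Eno1b (0.36), with 3 genes within 0.5. Meg3 was at 4.10 FPKM in MEFs, 0.288 in iPSCs, 2.57 in V6.5, 3.01 in NTC, and 2.08 in shGldc, lowest in iPSCs like Igf2bp3.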

How the data were processed

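RNA-seq was made of 5 libraries, 1 per group as labelled. The strand setting of the counting is not given in the sources used here. Per the labels and the study's methods, the authors mapped reads with TopHat2 2.1.0 (mm10 in the methods, mm9 also in the submitters' processing notes), used SAMtools 1.7 and StringTie 1.3.4d, and obtained FPKM from Ballgown. The FPKM values were deposited in 2 separately made tables, of MEF, IPS, and V6.5 and of NTC and shGldc. Coordinates, overlaps, and 3′ UTRs come from GENCODE M21 (GRCm38), not from the deposited files.

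The members and all lists were chosen with earlier results of these data known. Log2 ratios are differences of log2(FPKM + 0.1), and folds of single genes are quotients of FPKM. A gene was kept where either library of the pair reached 1 FPKM, and differences of at least 2-fold were counted on the log2 ratios. Depth was estimated from steps between low FPKM values of 5723 genes with a single transcript, at 24.6 (in 1e6 fragments) in MEF and V6.5, 22.1 in IPS, 29.0 in NTC, and 28.7 in shGldc. For NTC, a depth of 14.5 fitted more of the low values (32 against 17), and for shGldc 14.4 fitted as many (27). The depths of NTC and shGldc are therefore uncertain. Intervals and floors cover counting error only.

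By rule, the genes named are all 9, Gldc, the highest and lowest of a pathway list in a comparison, list genes past 2-fold in shGldc over NTC, and for each member the 2 genes of most like profile. Ccnd2, Myc, Meg3, Ly96, H19, Fbn1, and Cd68 were described further after their values were seen. So were the markers named in iPSCs over V6.5 and those under the filter in shGldc over NTC. Alternatives were a pseudocount of 1 or 0.01, rescaling to 1 FPKM sum, centring on the median, no filter, an FPKM of at least 5, a pseudocount in the paralogue shares, and let-7 matches followed by an A. Values of 1 further item are not reported here. Scripts ran under Python 3.11.15 with pandas 2.3.3, numpy 2.4.6, matplotlib 3.10.9, and scipy 1.17.1 and were tested on simulated data.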

Additional observations from a re-analysis of the deposited data

Results flagged for a closer look

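Relative to MEFs, Igf2bp3 had a log2 ratio of 0.19 in the unmodified V6.5 library and -3.50 in the iPSC library. This was noted because these libraries lay on different sides of the MEF level (16.3 FPKM), and the difference was not tested, since each condition was 1 library. The NTC and shGldc libraries, also V6.5 cells, were at 13.8 and 11.8 FPKM, below MEFs as the iPSC library was. The value in unmodified V6.5 cells is small and turned negative when the libraries were rescaled or centred.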

How the results depend on the processing

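Under the alternatives, 140 recomputed summary values stayed within the limits used and 3 did not. The limits were 1.5 times for a count, 0.59 for a log2 value, and 5 percentage points for a share, so a count could change and stay within them. Such counts were the genes at least 2-fold higher in V6.5 over MEFs (5 in place of 6 on rescaling, on centring, and at an FPKM of at least 5), in iPSCs over MEFs (4 in place of 5 at an FPKM of at least 5), and in shGldc over V6.5 (3 in place of 2 on rescaling and on centring), and the genes with a let-7 match (7 in place of 8 when followed by an A). The 3 beyond the limits follow. When V6.5 over MEFs was centred on the median, 2 genes were at least 2-fold lower in place of 1, the second being Igf2bp2 (-1.01). With a pseudocount of 1, 1 gene was at least 2-fold higher in shGldc over V6.5 in place of 2, since Igf2bp1 came to 0.998. When a let-7 match had to be followed by an A, 3 genes held at least 2 in place of 5. Of 317 single-gene ratios, 12 moved by more than 0.59, and no ratio past 2-fold changed sign. They were Lin28a, Lin28b, and Trim71 over MEFs under another pseudocount, where Lin28b in V6.5 ran from 1.40 to 5.72, and Igf2bp3 in iPSCs with a pseudocount of 1, at -2.88 over MEFs and -3.06 over V6.5. The shares over all genes depend on the pseudocount. With a pseudocount of 1 they were 5.46% higher and 4.49% lower in shGldc over NTC, and 6.11% and 4.51% in iPSCs over V6.5. With an FPKM of at least 5 required, they were 5.85% and 3.96% of 8124 genes in shGldc over NTC. No paired analysis was possible because the labels give no shared replicate numbers and each group is 1 library. Depth limits the MEF values of Lin28a, Lin28b, and Trim71.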
